A study of Mus musculus with 9 samples.

Results

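The nuclear genes for the subunits of the oxidative phosphorylation chain were examined in mouse glomeruli, the capillary tufts that filter blood in the kidney. Members were taken by name from the array annotation: the Ndufa, Ndufb, Ndufs and Ndufv series, Sdha to Sdhd, the Uqcr genes, Cox4 to Cox8 and the Atp5 genes. The names matched 127 probes of 82 genes, out of 56573 probes used. Of these, 120 probes of 81 genes were well above background on all 3 arrays of at least 1 group and were tested among 24160 features. Cox8c, a cytochrome c oxidase isoform, was well above background on 1 array and was not tested. The tested members were 33 genes of complex I, 4 of complex II, 8 of complex III, 17 of complex IV and 15 of complex V. Another 4 matched by name but are not counted as subunits here: Dmac2 and Dmac2l (listed on the array as Atp5sl and Atp5s), the pseudogene Atp5c1-ps and Cox7a2l. The probe of Atp5c1-ps may also pick up Atp5c1, its parent gene, so its values are uncertain.

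Glomeruli were isolated with magnetic beads from male BTBR mice 22 weeks old, in 3 groups with 3 arrays each. One group was BTBR wild type fed vehicle food, one was BTBR ob/ob fed vehicle food, and the other was BTBR ob/ob fed food with enarodustat, with treatment lasting 18 weeks. The ob/ob mutation removes leptin, and BTBR mice that carry it become obese and diabetic. Enarodustat blocks HIF prolyl hydroxylases, the enzymes through which oxygen keeps hypoxia-inducible factor (HIF) low. Wild-type mice on the drug are not analysed here. The labels do not say whether an array held 1 mouse or a pool, so p-values measure the spread between these samples, which may be partly technical.

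The 5 complexes sit in the inner mitochondrial membrane. Complexes I and II pass electrons from NADH and succinate to ubiquinone, complex III passes them to cytochrome c, and complex IV hands them to oxygen. Complexes I, III and IV pump protons, and complex V uses the gradient to make ATP. Most subunits are coded in the nucleus and a few in mitochondrial DNA, and several complex IV subunits exist as a widely expressed form and a tissue-restricted form. Under low oxygen, HIF is known to limit respiration through Pdk1, which blocks the entry of pyruvate, to switch Cox4i1 to Cox4i2, and to induce Ndufa4l2. Proximal tubule cells are known to be rich in mitochondria, so markers of tubule RNA are given beside the values.

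All levels below are log2 of the processed signal minus the array's 75th percentile, so 0 is a signal equal to that percentile, and levels of different probes are not compared. The 75th percentile lay between 210.5 and 325.4 signal units over the arrays, the share of probes well above background was 62.3% to 68.3%, and no spot was saturated. The number of arrays, 3 per group, limits the precision. The 20 podocyte markers were well above background on all 9 arrays, as were the 15 markers of glomerular endothelium and the 12 of mesangium. Of 33 proximal tubule markers, 27 were above background on every array and none was below it throughout a group. The log2 summed level of the tubule list ran from 6.59 to 9.59 in wild type, from 5.47 to 6.61 in ob/ob on vehicle and from 6.17 to 8.25 on enarodustat. Wild-type replicate 3 and enarodustat replicate 2 had the highest levels, and ob/ob vehicle replicate 3 the lowest. Red-cell genes also differed: the summed level of 9 of them was 3.99 to 5.95, 5.66 to 6.91 and 6.45 to 8.86 in the same order of groups. The cell type lists stand beside the results below, and their part in those results was not tested. Some fits below used the proximal tubule level as a covariate. That level was measured on the same arrays and differed between the groups, so these fits cannot separate it from the group.

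The upstream sequences of the members that the results turn on are shown here because the levels of Cox7b2 and Cox8b are described most closely below, with their widely expressed relatives Cox7b and Cox8a and with Uqcrh. Each run is the 250 bases upstream of the annotated start in RefSeq, build GRCm38.p6, read 5′ to 3′ on the strand of the gene. Capitals mark a match to 1 of the 6 motifs searched on both strands.
Cox7b2, chr5:71548206-71548455, minus strand: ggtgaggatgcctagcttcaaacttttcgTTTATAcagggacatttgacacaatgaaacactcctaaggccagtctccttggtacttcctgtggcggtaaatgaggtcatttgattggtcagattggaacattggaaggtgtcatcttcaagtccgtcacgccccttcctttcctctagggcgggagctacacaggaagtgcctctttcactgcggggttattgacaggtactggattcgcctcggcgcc
Cox7b, chrX:106015450-106015699, plus strand: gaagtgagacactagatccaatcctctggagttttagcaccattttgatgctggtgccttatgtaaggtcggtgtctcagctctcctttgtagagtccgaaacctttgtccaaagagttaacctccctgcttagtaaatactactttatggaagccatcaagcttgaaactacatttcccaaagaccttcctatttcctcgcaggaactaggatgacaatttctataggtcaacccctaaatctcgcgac
Cox8b, chr7:140900447-140900696, minus strand: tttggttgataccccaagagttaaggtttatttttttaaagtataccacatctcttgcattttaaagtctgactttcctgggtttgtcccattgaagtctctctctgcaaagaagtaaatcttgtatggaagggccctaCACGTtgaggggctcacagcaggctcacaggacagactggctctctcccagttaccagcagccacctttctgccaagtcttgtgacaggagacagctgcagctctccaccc
Cox8a, chr19:7217617-7217866, minus strand: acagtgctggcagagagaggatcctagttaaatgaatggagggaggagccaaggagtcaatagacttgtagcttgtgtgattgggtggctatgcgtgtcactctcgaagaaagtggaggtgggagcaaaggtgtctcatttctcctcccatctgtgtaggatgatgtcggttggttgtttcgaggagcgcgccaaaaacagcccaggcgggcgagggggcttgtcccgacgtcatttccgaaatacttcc
Uqcrh, chr4:116075071-116075320, minus strand: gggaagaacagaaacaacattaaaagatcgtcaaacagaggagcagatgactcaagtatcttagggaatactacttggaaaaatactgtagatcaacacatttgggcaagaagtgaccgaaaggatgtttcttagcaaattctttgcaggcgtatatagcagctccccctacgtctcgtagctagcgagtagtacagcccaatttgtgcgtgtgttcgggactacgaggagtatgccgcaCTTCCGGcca
In Cox7b2 the capitals are a TATAAA match on the opposite strand, 221 to 216 bases before the start. In Cox8b they are an ACGTG match, the core of a HIF site, on the opposite strand 111 to 107 bases before the start. In Uqcrh they are a CCGGAAG match, the ETS site bound by GABP, again on the opposite strand and 10 to 4 bases before the start. Cox7b and Cox8a held none of the 6 motifs in this window.

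Over the whole family, 66 of the 82 genes had an upstream sequence in the table. A core of the NRF1 site (TGCGCA), a factor known to drive respiratory chain genes, was found in 13 of these 66 sequences, or 19.7%, against 7.36% of the 27025 genes in the table. CCGGAAG was found in 12, or 18.2%, against 7.83%. The other motifs were nearer to the share over all genes: AAGATGGC (YY1) in 2 members (3.03% against 1.83%), AAGGTCA (ERR) in 5 (7.58% against 4.70%), ACGTG in 16 (24.2% against 18.5%) and TATAAA in 6 (9.09% against 14.3%). The members' sequences were also richer in G and C, with a median of 56.4% against 52.4%, and the part of base composition in these shares was not tested. Of the 4 tissue-restricted complex IV genes with a sequence, none held the NRF1 or the ETS letters. Among the widely expressed genes of complex IV, Cox5a, Cox7a2, Cox7b, Cox7c, Cox8a and Ndufa4 held neither as well. Cox6a1 held both and Cox6b1 held the ETS letters. A match is a description of letters and not evidence of a bound site.

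In ob/ob glomeruli on vehicle, Cox7b2 was lower than in wild type and no other member was called. Only 1 of 81 tested members was called at an adjusted p under 0.05 (limma, Benjamini-Hochberg over all features), and it was lower, while none was higher. Over all features, 7.56% were called in this comparison, 4.89% higher and 2.67% lower. At an unadjusted p under 0.05 there were 2 of 81 members, Cox7b2 and Cox8b, against 23.6% of all features. The median log2 change of the members was 0.01, against 0.02 over all features, and 44 of 81 changes were above 0, where 52.2% of all features were. That near balance rests on the scaling: with quantile normalization the median was -0.10 and 9 of 81 changes were above 0. With normexp background correction and quantile normalization together it was -0.11 with 11 above 0. The median over all features was 3e-04 and 6e-04 in these fits. With scaling to the array median the members' median was 0.08 with 58 above 0, where the median over all features was also 0.08. The changes were small, with 78 of 81 within 0.3 log2 units of 0. For 75 of 81 members, 92.6%, the whole 95% interval lay within 1.5-fold of no change, against 44.6% of all features. Larger shifts of most single subunits thus lay outside their intervals. The members' intervals were also narrower, with a median SE of 0.131 against 0.168 over all features in each comparison. The shares were not matched for signal. These intervals hold for the chosen probe and this scaling, and do not cover differences between probes or scalings.

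**Figure D1:**
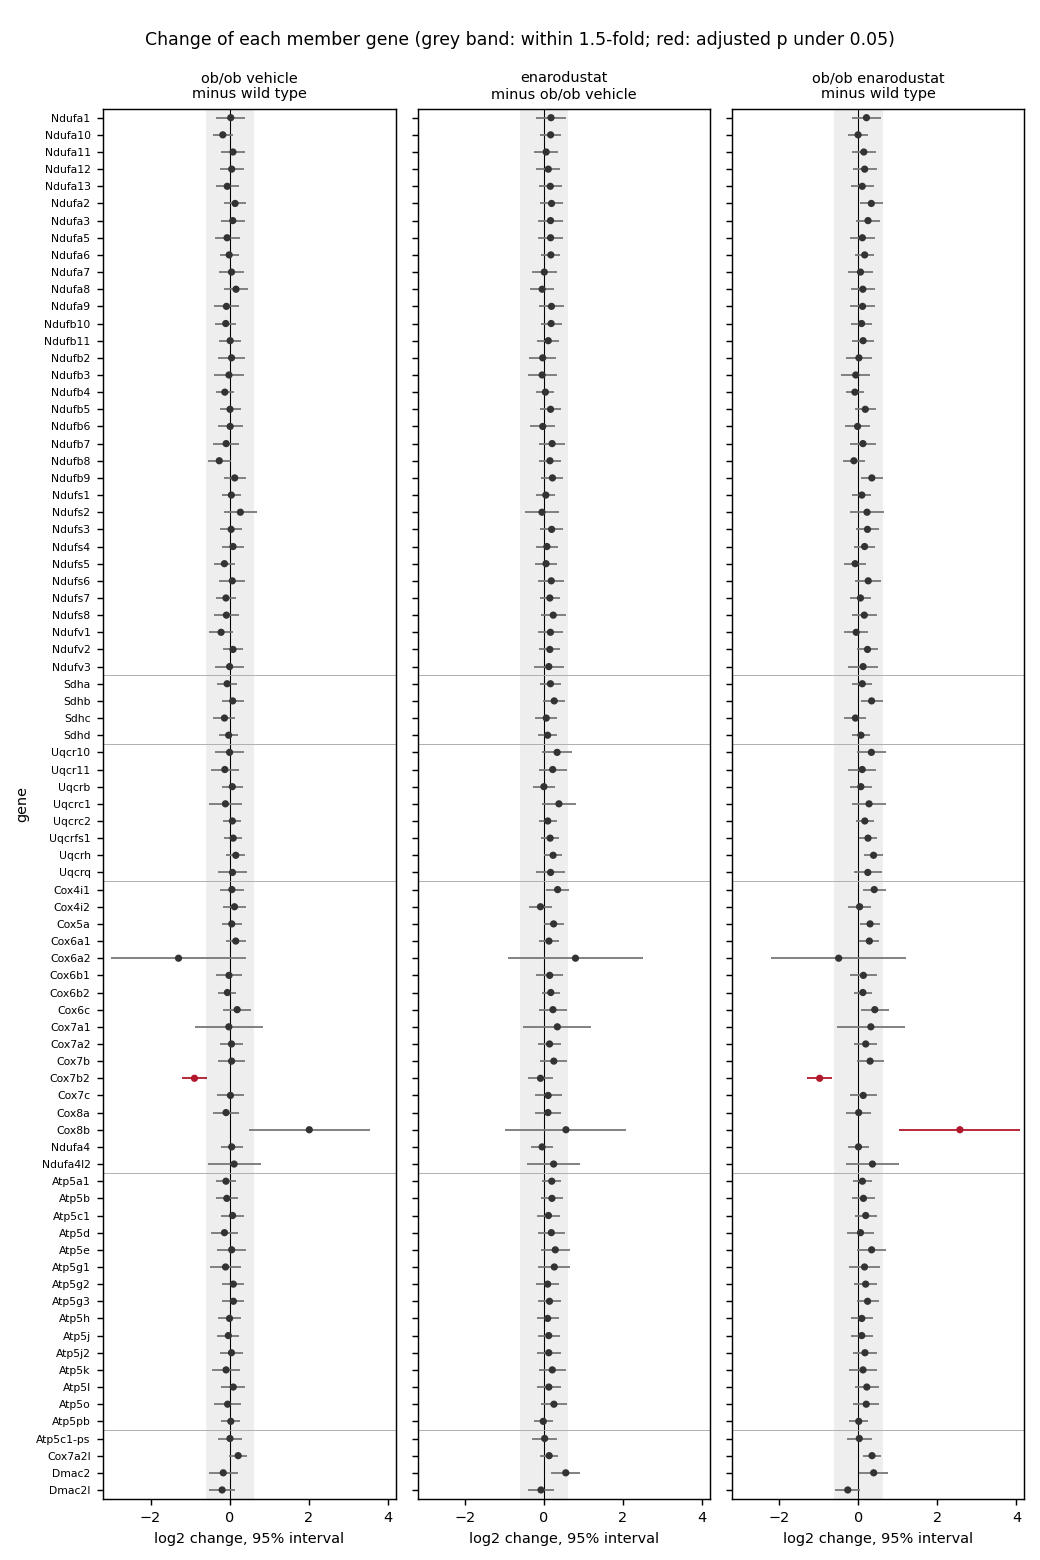
Log2 change with 95% interval (x axis) of each of the 81 tested member genes (y axis, grouped by complex) in the 3 comparisons. Cox7b2 lies near -0.89 and -0.98 in the comparisons with wild type and Cox8b near 2.57 in the last, each in red, while nearly all other points lie inside the grey band of 1.5-fold.

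By complex, the median change in ob/ob was 0.01 for complex I, -0.05 for complex II, 0.07 for complex III, 0.05 for complex IV and 0.00 for complex V. In complex I the smallest p belonged to Ndufb8, an accessory subunit of the membrane arm. Its levels were 5.14, 5.04 and 5.01 in wild type and 4.63, 4.91 and 4.87 in ob/ob. The groups did not overlap, yet the change of -0.26 ± 0.13 (SE) had an adjusted p of 0.249 by limma. A second Ndufb8 probe went the other way, also without overlap, at 0.10, 0.02 and -0.11 in wild type and 0.45, 0.33 and 0.21 in ob/ob, a change of 0.33 with an adjusted p of 0.157. The direction of Ndufb8 is therefore not settled. Ndufv1, which holds the NADH site, was at 5.24, 5.13 and 5.31 in wild type and at 4.89, 5.12 and 5.02 in ob/ob (change -0.22 ± 0.14, adjusted p = 0.378). Ndufs1, the large iron-sulphur subunit, differed by 0.04 ± 0.10. In complex II, Sdha, the flavoprotein that oxidises succinate, differed by -0.06 ± 0.11 and Sdhc, a membrane anchor, by -0.13 ± 0.12. Atp5b, the catalytic beta subunit of complex V, differed by -0.07 ± 0.13. In all, 6 members (2 higher, 4 lower) had groups that did not overlap, or 7.41%, where 30.7% of all features did.

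Cox7b2 is a paralogue of the complex IV subunit Cox7b and is known mainly from testis. Its probe lies at chr5:71834167-71834226 of build mm9, minus strand. No other probe on the array stood for Cox7b2, and which transcript this probe reads was not tested. Its levels were 0.51, 0.52 and 0.47 in wild type, -0.68, -0.30 and -0.20 in ob/ob on vehicle, and -0.35, -0.52 and -0.59 in ob/ob on enarodustat. Every ob/ob array, treated or not, was below every wild-type array. The fall in ob/ob was -0.89 ± 0.14 (SE), with an adjusted p of 0.00863 by limma. With enarodustat against wild type it was -0.98 ± 0.14 with an adjusted p of 0.00631, and both comparisons use the same wild-type arrays. Between the ob/ob groups the change was -0.09, with a 95% interval from -0.41 to 0.23. Cox7b itself did not follow, at 4.31, 4.28 and 4.29, then 4.12, 4.39 and 4.51, then 4.48, 4.85 and 4.43. With each gene centred on its own mean over the arrays, Cox7b2 minus Cox7b was 0.73, 0.78 and 0.71 in wild type and -0.27, -0.16 and -0.18 in ob/ob on vehicle. Markers of several cell types moved with the same arrays. All 20 podocyte markers had a lower mean in ob/ob (10 called, median -0.76), with medians per array of 0.51, 0.66 and 0.54 in wild type and between -0.79 and -0.15 in ob/ob. Of 20 monocyte and macrophage markers 13 were called higher (median 1.81), and 17 of the 20 were above background on every array. All 12 mesangial markers had a higher mean (4 called, median 0.74). So did 12 of 15 endothelial markers (median 0.29), and of the 15, 3 were called higher and 1 lower. The part of these cell types in the Cox7b2 result was not tested, and in whole glomeruli fewer cells of a type and less RNA per cell cannot be told apart. With the proximal tubule level as a covariate the fall was -0.96 with an adjusted p of 0.0368.

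Cox8b, a complex IV isoform known from heart, skeletal muscle and brown fat, was the only tested member not well above background on all 9 arrays. Its probe lies at chr7:148084852-148084911 of build mm9, minus strand. Levels were -6.46, -6.15 and -4.73 in wild type, none of them well above background. In ob/ob on vehicle they were -3.13, -2.93 and -5.23, of which 2 were well above background, and on enarodustat -3.82, -2.62 and -3.19, all above it. The enarodustat arrays lay above the wild-type arrays without overlap, and the vehicle-fed ob/ob arrays overlapped wild type through replicate 3. The wild-type level is only a bound. Set against it, Cox8b in ob/ob on enarodustat was 3.75-fold higher. The measured means were -3.21 on enarodustat and -5.78 in wild type (adjusted p = 0.0464 by limma). This bound sets the treated mean against the mean, over the wild-type arrays, of the dimmest signal counted as well above background, or of the probe's own signal where that was higher. That dimmest signal was taken over all probes, so the bound is not a strict limit for this one. Cox8b entered the tests only because all 3 enarodustat arrays were above background, so the same difference helped to select it and this p carries no weight as support. With no filter on dim probes its adjusted p was 0.0991. For ob/ob on vehicle the adjusted p was 0.113, and no bound is given since replicate 3 was not above background. The drug comparison within ob/ob gave a change of 0.55 ± 0.67. The call against wild type was lost in 7 of the 9 fits that left out 1 array, and it held when the array left out was the third of wild type or the third of ob/ob on vehicle. Adjusted p-values ran from 0.0181 to 0.131 over these fits, with changes from 2.23 to 3.09. In the vehicle comparison 1 of the 9 fits was called, the one without ob/ob vehicle replicate 3 (2.75, adjusted p = 0.0311 by limma). That array was the only one of its group not above background, so a larger change was bound to follow. The other 8 fits were not called, with adjusted p-values up to 0.277. With the tubule level as a covariate Cox8b was called in both comparisons with wild type (3.22, adjusted p = 0.0151, and 2.99, adjusted p = 0.00424). The fits with an array left out and with the covariate used the same filter on dim probes. Their p-values therefore carry no weight as support either.

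**Figure D2:**
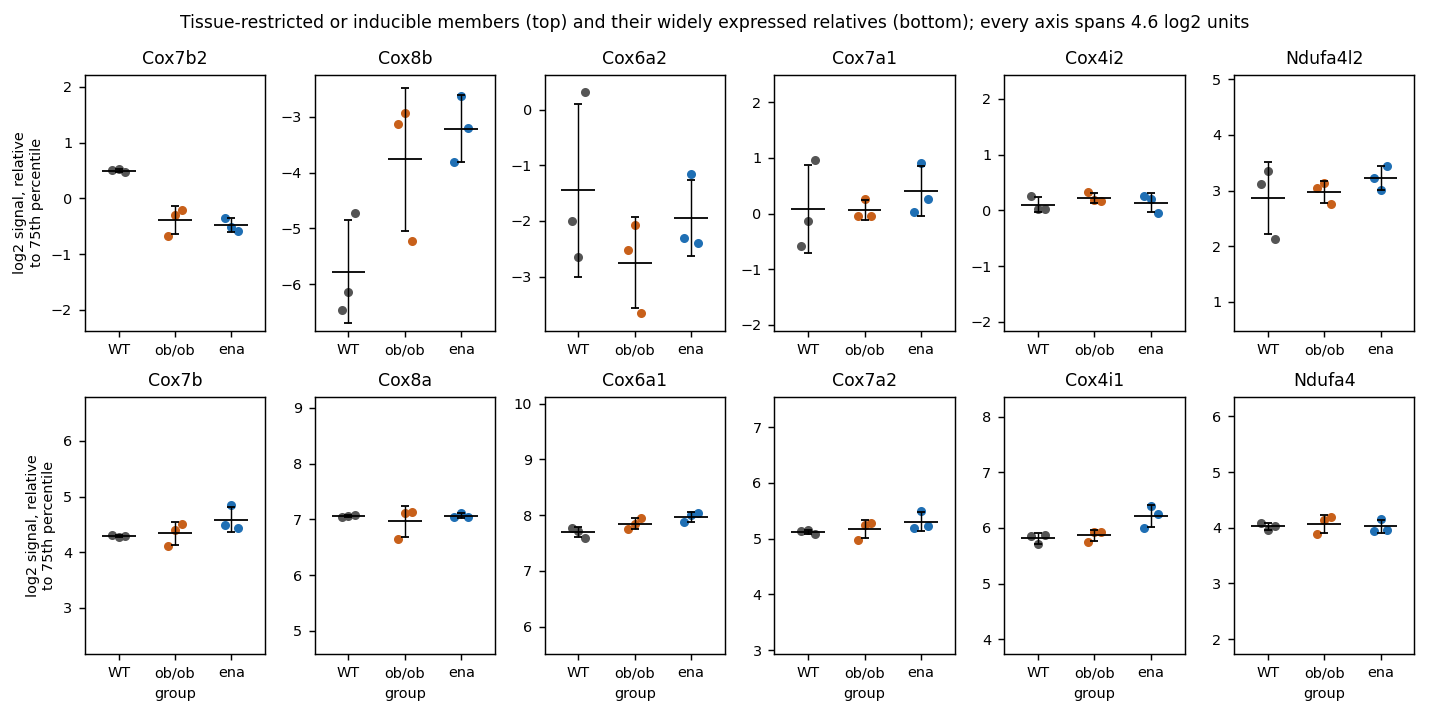
Log2 level on each array (y axis) of 6 restricted or inducible members and of a widely expressed relative below each, by group (x axis), with the group mean (long line) and SD (bars). Cox7b2 separates wild type (0.47 to 0.52) from all ob/ob arrays (-0.68 to -0.20), and Cox8b, Cox6a2 and Cox7a1 spread widely within groups.

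The other restricted or inducible isoforms did not pass the test, and they varied unequally within groups. The median SD within a group was 0.14 over the members and 0.21 over all features, but it was 1.09 for Cox6a2, 0.97 for Cox8b, 0.54 for Cox7a1 and 0.41 for Ndufa4l2, the 4 highest of the members. It was 0.14 for Cox4i2 and 0.07 for Cox6b2, a testis form. Cox6a2, the heart and muscle form of Cox6a1, was at -2.01, -2.65 and 0.31 in wild type, at -2.52, -2.06 and -3.65 in ob/ob on vehicle and at -2.3, -1.17 and -2.39 on enarodustat. Its highest value in wild type and its highest on enarodustat fell on the arrays with the most tubule signal, and its lowest value on the array with the least. The tubule medians were 0.23, -0.27 and 3.11, then -0.84, -0.10 and -2.73, then -0.66, 2.07 and -0.63, each relative to the mean over arrays. The Cox6a2 change in ob/ob was -1.29 ± 0.75 (adjusted p = 0.341 by limma), and with the tubule level as a covariate it was 0.19. All 33 tubule markers had a lower mean in ob/ob on vehicle than in wild type. Group and tubule RNA therefore cannot be told apart by this fit, and the part of tubule RNA was not tested. Cox7a1, another muscle form, was also highest on those 2 arrays, at 0.96 in wild-type replicate 3 and 0.90 in enarodustat replicate 2. Its changes were -0.02, 0.34 and 0.31 in the 3 comparisons, in the order used here, each with an SE of 0.38. Cox6a1, which is found in most tissues, was at 7.78, 7.71 and 7.59, then 7.75, 7.83 and 7.96, then 7.87, 8.01 and 8.04.

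Between ob/ob on enarodustat and ob/ob on vehicle no member was called, and no feature at all was called: 0% of 24160 features had an adjusted p under 0.05 (limma). At an unadjusted p under 0.05 there were 1693 features, or 7.01%, and 2 of 81 members, Cox4i1 and Dmac2. The members nevertheless leaned one way in size. Their median log2 change was 0.15, where the median over all features was -0.03, and 70 of 81 changes were above 0, where 44.7% of all features were. With quantile normalization the members' median was 0.15 with 69 of 81 above 0, and with normexp added to it 0.135 with 71 of 81. With scaling to the array median it was 0.09 with 63 of 81 above 0, where the median over all features was -0.09. The lean was alike in complex I (median 0.15, 28 of 33 above 0), II (0.13, 4 of 4), III (0.19, 7 of 8), IV (0.17, 14 of 17) and V (0.14, 14 of 15). In fold terms it is slight, and for 70 members, 86.4%, the 95% interval lay within 1.5-fold of no change, against 56.2% of all features. Groups did not overlap for 11 members, all higher (13.6%), where 6.51% of all features were higher and 9.49% lower without overlap, 16% in all.

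**Figure D3:**
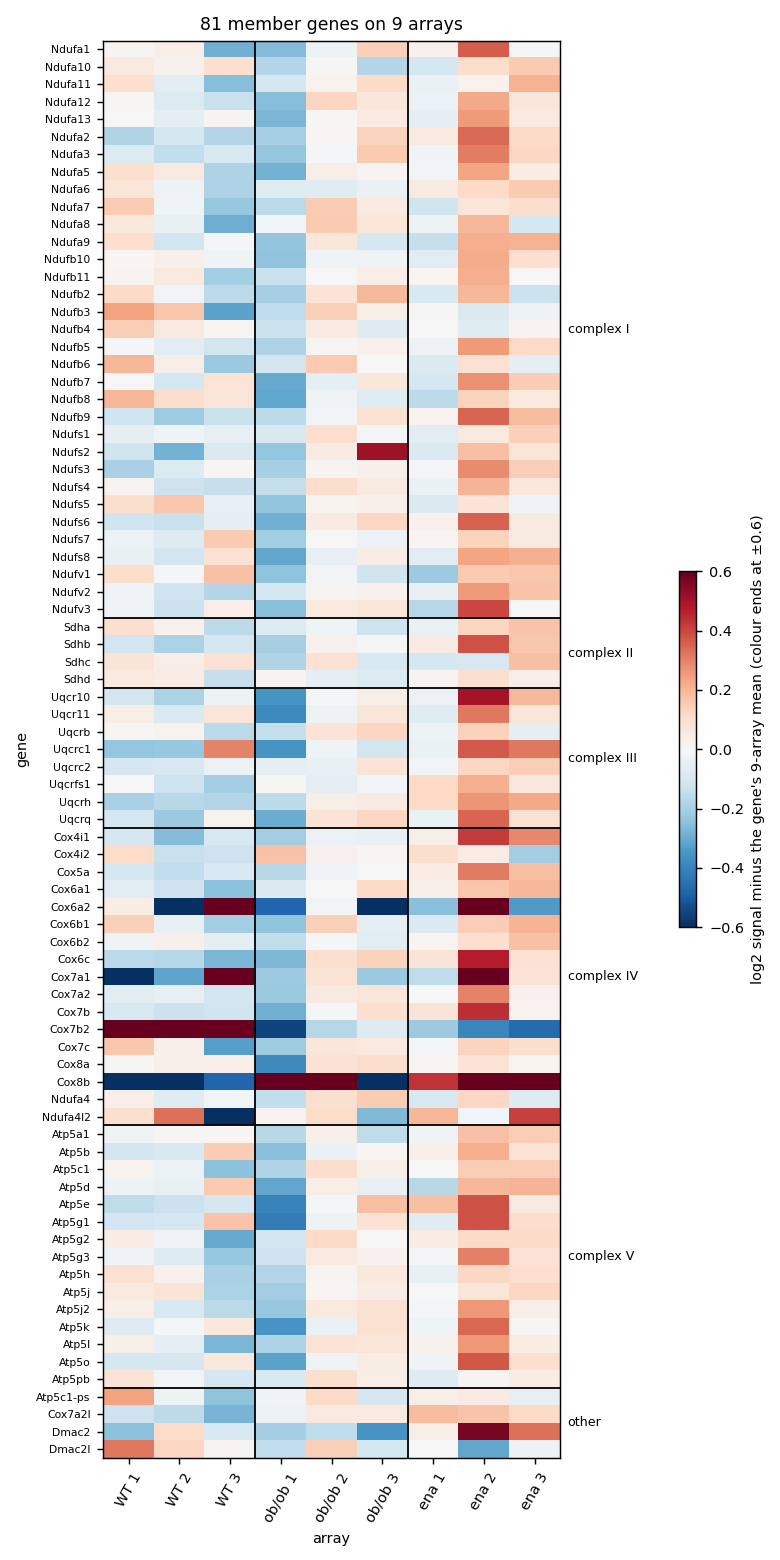
Level of each of the 81 tested members (rows, grouped by complex) on each of the 9 arrays (columns) as the log2 deviation from the gene's own mean, with colour ending at ±0.6. The column of ob/ob vehicle replicate 1 is mostly blue (76 of 81 members below their mean) and that of enarodustat replicate 2 mostly red (75 of 81 above).

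The members did not stand alike on the arrays of a group. In ob/ob vehicle replicate 1, 76 of 81 members were below their own mean over the arrays, with a median of -0.20, whereas 51 of 81 were above it in replicates 2 and 3 alike. In enarodustat replicate 2, 75 of 81 were above their mean, with a median of 0.21, in replicate 3 it was 67 of 81 and in replicate 1 31 of 81. Among all features, between 45.0% and 55.1% were above their mean on any array. The median change of the members was 0.08 with 61 of 81 above 0 without ob/ob vehicle replicate 1. It was 0.09 with 68 of 81 above 0 without enarodustat replicate 2, and 0.23 with 75 of 81 above 0 without enarodustat replicate 1. With both of the first named arrays left out it was 0.02 and 45 of 81 changes were above 0, but these were picked as the lowest vehicle and the highest treated array for the members, so a smaller median was bound to follow. Enarodustat replicate 2 was also the array with the second highest tubule level. Of the 33 tubule markers 32 were higher on enarodustat than in ob/ob on vehicle by their means (median 1.5, none called), as were all 16 distal nephron markers (median 1.84, none called). Distal nephron medians per array were -2.37, -0.23 and 0.27 in ob/ob on vehicle, relative to the mean over arrays. On enarodustat they were 0.88, 2.21 and 0.575. With the proximal tubule level as a covariate the members' median was 0.14. That covariate holds no distal nephron marker, and the part of distal nephron RNA was not tested. Red-cell markers had a median of 1.59 in the same comparison, 8 of 9 above 0 and none called, and their part was not tested.

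**Figure D4:**
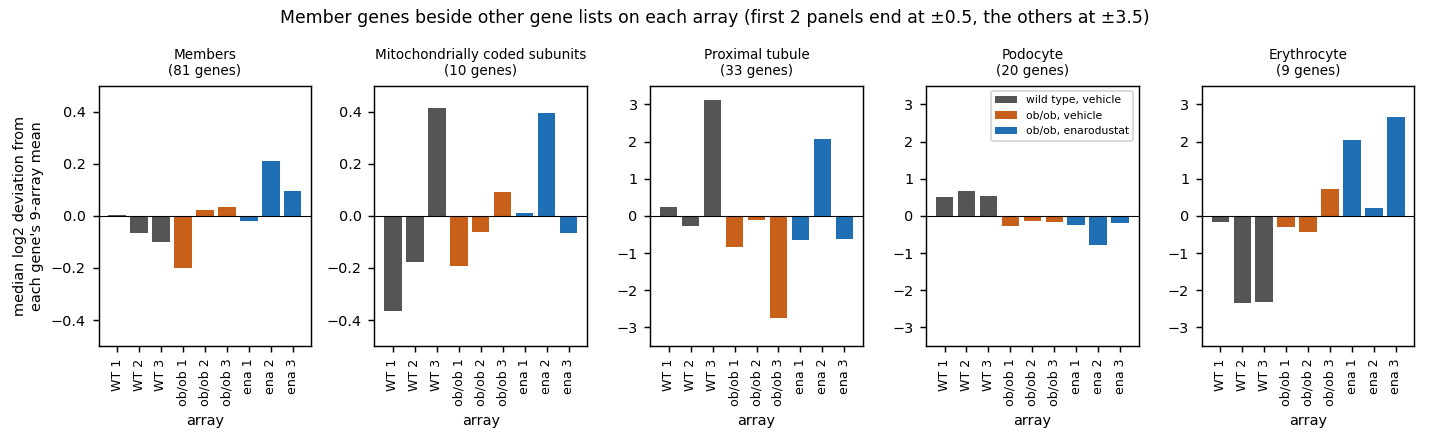
Median log2 deviation from each gene's 9-array mean (y axis) on each array (x axis) for the members, the mitochondrially coded subunits and 3 marker lists, coloured by group. The members move within about 0.2 of 0, with ob/ob vehicle replicate 1 lowest (-0.20) and enarodustat replicate 2 highest (0.21), and the marker lists move over several log2 units.

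Cox4i1, the main form of the regulatory subunit 4 of complex IV, had the smallest p in its complex in this comparison. It was read by the 60-base probe at chr8:123197924-123197983 of build mm9, plus strand, whose sequence is shown because the reading of the Cox4 pair rests on it.
Cox4i1 probe: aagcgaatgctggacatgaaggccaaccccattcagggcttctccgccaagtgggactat
Its levels were 5.86, 5.71 and 5.87 in wild type, 5.76, 5.93 and 5.92 in ob/ob on vehicle, and 6.0, 6.39 and 6.25 on enarodustat. The treated arrays lay above all others. The change within ob/ob was 0.34 ± 0.13 (adjusted p = 0.708 by limma), and against wild type 0.40 ± 0.13 (adjusted p = 0.0883). Cox4i2, its HIF-inducible counterpart, was at 0.26, 0.02 and 0.03, then 0.33, 0.18 and 0.16, then 0.26, 0.20 and -0.06, and all groups overlapped. Its change on enarodustat was -0.09 ± 0.13, with a 95% interval from -0.38 to 0.20. Ndufa4l2, the HIF-inducible relative of the complex IV subunit Ndufa4, was at 3.12, 3.35 and 2.13, then 3.05, 3.14 and 2.76, then 3.23, 3.01 and 3.43. It changed by 0.24 ± 0.29 on enarodustat, with an interval from -0.43 to 0.91, and Ndufa4 by -0.05 ± 0.12.

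Among the other members in the same comparison, Uqcrh, the hinge protein of complex III, had non-overlapping groups and was not called. Its levels were 5.83, 5.86 and 5.85 in wild type, 5.87, 6.06 and 6.08 in ob/ob on vehicle and 6.15, 6.29 and 6.26 on enarodustat. The 3 groups stood one above the other. Changes were 0.15 ± 0.10, 0.23 ± 0.10 and, against wild type, 0.38 ± 0.10, with adjusted p-values of 0.4125, 0.708 and 0.0512. Its probe lies at chr4:115739644-115739703 of build mm9, minus strand. Sdhb, the iron-sulphur subunit of complex II, was at 4.96, 4.88 and 4.96, then 4.87, 5.10 and 5.06, then 5.12, 5.45 and 5.23 (change on enarodustat 0.26 ± 0.12, adjusted p = 0.715). Uqcrfs1, the Rieske iron-sulphur protein, changed by 0.15 ± 0.10, Uqcrc1, a core subunit of complex III, by 0.38 ± 0.18, and Atp5b by 0.20 ± 0.13. None of these passed the test.

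Against wild type, the ob/ob glomeruli on enarodustat had 2 called members, Cox7b2 lower and Cox8b higher, of which Cox8b passed the filter only through the treated group. In this comparison 10.2% of all features were called, 6.11% higher and 4.1% lower, beside 2 of 81 members, 2.47%, or Cox7b2 alone with no filter on dim probes. The members' median was 0.13 against -0.01 over all features, with 70 of 81 changes above 0 where 49.4% of features were. With quantile normalization the median was 0.03 and 46 of 81 were above 0, and with normexp added to it 0.01 and 47 of 81. Without wild-type replicate 3 and enarodustat replicate 2 it was 0.07 with 52 of 81 above 0, and without enarodustat replicate 1 the median was 0.21, without replicate 2 0.08. The median was 0.24 in complex III with 8 of 8 above 0, and 0.15 in complex V with 15 of 15. Groups did not overlap for 18 members that were higher and 2 that were lower, where 16.8% and 14% of features did so. Cox7a2l, which helps to join complexes III and IV into supercomplexes, was at 5.52, 5.49 and 5.37 in wild type, 5.61, 5.71 and 5.71 in ob/ob on vehicle and 5.83, 5.82 and 5.77 on enarodustat. Its change against wild type was 0.34 ± 0.10, with an adjusted p of 0.0593 by limma. Ndufb9 of complex I (0.34 ± 0.12), Sdhb (0.33 ± 0.12) and Atp5e, the epsilon subunit of complex V (0.33 ± 0.16), had the smallest p of their complexes, and adjusted p-values between 0.117 and 0.224. The whole interval lay within 1.5-fold for 62 members, 76.5%, and within 2-fold for 76. Cell type lists also differed here. Red-cell genes had 6 of 9 called higher (median 3.26), podocyte markers 13 of 20 called lower (median -1.01), and monocyte and macrophage markers 11 of 20 called higher (median 1.46). Of 16 distal nephron markers 15 had a higher mean (median 1.83, 1 called), and all 33 proximal tubule markers had a lower one (median -0.62, none called). Their part in the members' values was not tested.

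Where a gene had several probes they did not always tell the same story. Of 29 such members the probes had the same sign in 19, 20 and 19 in the 3 comparisons. Taken probe by probe, 2 of 120 kept member probes were called lower in ob/ob on vehicle and 0 higher. With 1 probe per gene, 2.67% of all features were called lower in this comparison. The 2 probes were that of Cox7b2 and 1 of 2 of Ndufa13, the second singled out here after its values were seen. Ndufa13 is a complex I subunit also known as a cell death regulator. That probe was at -1.98, -1.76 and -1.71 in wild type and at -2.58, -2.45 and -2.45 in ob/ob (change -0.68, adjusted p = 0.0125), while the probe with the higher mean, which stands for the gene, changed by -0.06. Which Ndufa13 transcript each probe reads was not tested.

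The lists of genes around the chain were described in the same way. Of the 13 subunits coded in mitochondrial DNA 10 were tested, and none was called. Their median changes were -0.01, 0.17 and 0.15, and they were highest on the 2 arrays with the most tubule signal, at 0.41 and 0.40 relative to the mean over arrays. None of 15 assembly factors of complex I and none of 5 subunits whose names fall outside the name patterns was called. Of 37 assembly factors of complexes II to V, Uqcc1, needed to make cytochrome b of complex III, was called lower in ob/ob. Its levels were 3.07, 3.23 and 3.21 in wild type, 2.31, 2.51 and 2.37 in ob/ob on vehicle and 2.20, 2.09 and 2.34 on enarodustat, with no overlap between wild type and the rest. The fall was -0.77 ± 0.11 (adjusted p = 0.00658 by limma) on vehicle and -0.96 ± 0.11 (adjusted p = 0.00329) on enarodustat. In the same list Ttc19, a complex III factor, and Higd1a, a HIF-induced modulator of complex IV, were called higher on enarodustat against wild type, by 0.42 and 0.62.

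Among 16 regulators of mitochondrial biogenesis, Twnk, the mitochondrial DNA helicase, was called lower in both comparisons with wild type (-0.53 and -0.50). Tfb1m, an rRNA methyltransferase of mitochondria, was called lower on enarodustat against wild type (-0.73, adjusted p = 0.0263 by limma). Tfam, which packages mitochondrial DNA, differed by 0.03 in ob/ob and by -0.17 on enarodustat within ob/ob. Ppargc1a, the coactivator that raises respiratory chain genes, was at -0.84, -0.36 and 0.79 in wild type, at -1.86, -1.38 and -1.13 in ob/ob on vehicle and at -0.36, 0.98 and 0.27 on enarodustat. The vehicle-fed ob/ob arrays lay below all others. The changes of -1.32 ± 0.46 in ob/ob and 1.75 ± 0.46 on enarodustat had adjusted p-values of 0.124 and 0.681 by limma. Its highest value in wild type and its highest on enarodustat again fell on the arrays rich in tubule markers, and the part of tubule RNA was not tested.

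Pyruvate entry into the citrate cycle is controlled by the pyruvate dehydrogenase kinases, which switch off pyruvate dehydrogenase. Of 22 genes of the citrate cycle and pyruvate entry, the 3 called in ob/ob were all pyruvate dehydrogenase kinases. Pdk1, the HIF-inducible one, was at -1.83, -1.66 and -1.55 in wild type, -0.72, -1.06 and -0.52 in ob/ob on vehicle and -0.26, 0.56 and 0.07 on enarodustat. The groups stood in that order without overlap. It rose by 0.92 ± 0.22 in ob/ob (adjusted p = 0.0428 by limma) and by 1.80 ± 0.22 with enarodustat against wild type (adjusted p = 0.00371). Within ob/ob the change of 0.89 ± 0.22 had an adjusted p of 0.654. Pdk4 rose by 2.37 in ob/ob and by 2.36 on enarodustat against wild type, and Pdk2 fell by 1.00 and by 0.66. Of 10 HIF-linked mitochondrial genes, a list that shares Pdk1 and Higd1a with those above, 3 were called higher on enarodustat against wild type. The third was Bnip3, a mitophagy receptor, at 2.4, 2.3 and 2.6, then 2.74, 2.37 and 2.62, then 3.26, 3.68 and 3.55, a rise of 1.06 ± 0.16 (adjusted p = 0.0067). Within ob/ob its change was 0.92 ± 0.16 with an adjusted p of 0.377. Lonp1, the protease that removes Cox4i1 in the HIF switch, differed by 0.14 ± 0.10 within ob/ob. Slc25a4, the ADP/ATP carrier, was the only called gene of 6 carriers and uncoupling proteins, higher by 0.42 on enarodustat against wild type.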

How the data were processed

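Total RNA of isolated glomeruli was labelled with Cy3 and hybridised to Agilent mouse arrays with 62976 spots, per the labels' protocols. The deposited scanner files hold each spot's intensity on a linear scale (processed signal, mean signal and median background), extracted by the authors with Feature Extraction 11.5.1.1, per the submitters' processing notes, which list limma too. The authors' table of values, also deposited, holds log2 values and was used as an alternative. Per the file headers, probe positions refer to mm9.

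From these files the 3671 control spots and outlier spots were left out, spots of a probe were averaged, and 32 probes with outlier spots only were dropped. Levels are log2 of the processed signal, less the 75th percentile of the array, with no pseudocount. A probe was kept when well above background on each array of some group of 3 (36668 probes), and the kept probe with the highest mean stood for its gene. Of the probes, 32975 were named by accession, 10221 by symbol and 518 by synonym in RefSeq (GRCm38.p6), 2080 kept the file's name and 10779 had none. A model with 3 groups was fitted to 9 arrays with limma 3.58.1 in R 4.3.3 (data.table, version 1.17.8), with Benjamini-Hochberg adjustment over 24160 features and calls at an adjusted p under 0.05. The fit was tested on simulated data. Tables and plots used Python 3.11.15, pandas 2.3.3 and matplotlib 3.10.9.

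The members, gene lists and tests were chosen with earlier results of these data known. Genes named are called members (at most 10 per direction), the smallest p per complex and comparison, 20 anchors, members whose probes are called in opposite directions, and, from the lists, up to 4 called genes each and Lrp2, Slc34a1, Ppargc1a, Tfam, Pdk1, Lonp1 and Higd1a. Members named beyond that, such as Dmac2, were chosen after their values were seen. An earlier analysis had set apart wild-type replicate 3 and enarodustat replicate 2 by tubule markers. The slide number in the files puts enarodustat replicate 3 alone on 1 slide and the other 8 arrays on another. The alternatives were other scalings, backgrounds, filters and probe rules, the value table, the replicate number as a block, a tubule covariate, array weights and left-out arrays.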

Additional observations from a re-analysis of the deposited data

How the results depend on the processing

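Cox7b2 was called lower in both comparisons with wild type under all 22 alternatives, with changes from -0.99 to -0.73 on vehicle and from -1.05 to -0.82 on enarodustat. All of these rest on the same probe, so they do not bear on what that probe reads. The call of Cox8b on enarodustat was lost in 12 of 21 alternatives (adjusted p up to 0.149), and Uqcrh passed the threshold against wild type in 4. Over 27 named members and 3 comparisons, 1687 of 1779 values counted as unchanged. Another 70 moved, 12 lost and 10 gained a call, and no called change reversed. A called value counted as unchanged if it stayed called in the same direction. A value not called had to stay uncalled and within the gene's SD within a group of its main estimate. For ob/ob on vehicle against wild type, 1826 features were called, against 1005 with no filter on dim probes, 638 with the tubule covariate, 4179 with array weights, 803 without ob/ob vehicle replicate 1 and enarodustat replicate 2, and 916 to 1776 with 1 array left out. For enarodustat against wild type, 2465 were called, against 1230, 4527 with weights, 1294 without wild-type replicate 3 and enarodustat replicate 2, 1176 without the other pair, and 1219 to 2165 with 1 array left out. Members called higher against wild type on enarodustat were 0 under normexp with quantile normalization, no filter, the replicate block and either pair of arrays left out, 2 with the mean of probes and with the value table, 4 with array weights, and 0 to 1 with 1 array left out. Members called higher on vehicle were 1 with the tubule covariate and with weights, and 0 to 1 with 1 array left out. Members called lower were 3 on vehicle and 2 on enarodustat under normexp with quantile normalization, and 2 on vehicle with each probe as a feature. The members' median on vehicle was -0.1025 with quantile normalization, -0.1135 with normexp added to it, 0.0785 with the array median, and -0.0225 to 0.0768 with 1 array left out. On enarodustat against wild type it was 0.0281 with quantile normalization, 0.0124 with normexp added to it, 0.0675 without wild-type replicate 3 and enarodustat replicate 2, and 0.0824 to 0.214 with 1 array left out. Within ob/ob it was 0.0759 to 0.2256 with 1 array left out, and 0.0163 without ob/ob vehicle replicate 1 and enarodustat replicate 2, a pair chosen after seeing the data. The cause of these shifts was not tested. Same-numbered samples correlated between -0.308 and 0.272 in their deviations, which with 3 arrays per group cannot settle whether the numbers pair them. With the replicate block 1408, 0 and 1956 features were called. The slide was not run as a block, since 1 slide holds 1 array, and leaving that array out gives the same estimate. Faint probes such as that of Cox8b are limited by their signal over background.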
